A study of Sus scrofa with 2 samples.

Results

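Late S to early G2 cells were sought among cultured pig adipose-derived stem cells (ADSCs) by the unique molecular identifiers (UMIs, counted molecules) of 4 cell cycle genes. A barcode with at least 5000 UMIs was taken as a member when it held at least 3 UMIs of TOP2A, at least 1 of CDK1, at most 1 of CCNB1 and none of PLK1. Library 1 held 65 such cells among 9581 barcodes of that depth, a share of 0.678% with an exact Clopper-Pearson 95% interval of 0.524% to 0.864%. Library 2 held 103 among 11598, or 0.888% with an interval of 0.725% to 1.08%. Together these were 168 of 21179 cells, and the intervals of the libraries overlapped. They cover counting error only.

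The members were set beside G2 and mitotic cells, which held at least 5 UMIs of TOP2A, at least 1 of CDK1 and at least 2 of CCNB1. There were 1037 of these in library 1 (10.8%) and 1264 in library 2 (10.9%). The other reference was non-cycling cells, with 0 UMIs of TOP2A, CDK1, CCNB1, PLK1 and MKI67, which numbered 4495 (46.9%) and 5619 (48.4%). The remaining cells of both libraries met none of these rules and entered no comparison.

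ADSCs resemble fibroblasts and can be grown from enzyme-treated fat tissue, where they include progenitors of fat cells. Those studied here came from chest fat of Bama miniature pigs, were described as healthy, and went through 3 generations in culture in at most 14 days before freezing. Both libraries belong to this group, were made from polyadenylated RNA with droplet 3' chemistry, and carry no treatment. The labels do not say whether they came from separate animals or cultures, nor how many animals were pooled. The main p-values therefore measure only how far the class differences varied between these 2 libraries, with the spread pooled over genes. That variation may be technical.

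The deposited matrices held 12251 and 12956 barcodes with 211527905 and 246316928 UMIs. The libraries had 46 barcode sequences in common, and 0 members of library 1 and 1 member of library 2 carried one. Depth differed between the classes. Members had a median of 26484 UMIs and 5230 genes in library 1 and of 24790 UMIs and 5362 genes in library 2. G2 and mitotic cells had medians of 33990 and 33616.5 UMIs, and non-cycling cells of 18422 and 17606. Doublets were neither called nor removed.

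A dividing cell copies its DNA in S phase and shares the copies out in mitosis, with the gap phase G2 between. Before S phase the origin recognition complex, CDC6 and CDT1 load the MCM helicase onto DNA, and E2F transcription factors switch on the genes for helicase, polymerases and nucleotide supply. PCNA, the sliding clamp that holds DNA polymerase on its template, is a usual marker of S phase. Genes for the spindle, the kinetochore and the anaphase-promoting complex are transcribed later and peak in G2 and mitosis. TOP2A, which untangles the DNA copies, and CDK1, the mitotic kinase, begin to rise during S phase, whereas cyclin B1 (CCNB1) and the kinase PLK1 accumulate towards mitosis.

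The values of the rule's own genes describe the choice of cells and were not tested. Median TOP2A was 4 UMIs in members of library 1 and 5 in library 2, against 12 and 15 in G2 and mitotic cells. Median CDK1 was 2 and 1 UMIs in members and 5 and 4 in G2 and mitotic cells. Median CCNB1 was 0 in members of both libraries and 7 and 6 in G2 and mitotic cells, whose median PLK1 was 6 in both. MKI67, a proliferation antigen that the rule for members did not use, had at least 1 UMI in 49.2% and 49.5% of members and in 72.2% and 84.3% of G2 and mitotic cells. In the annotation of Sscrofa11.1 TOP2A lies at 12:22001300-22028452, CDK1 at 14:64233945-64255290, CCNB1 at 16:47338239-47348385, PLK1 at 3:22537814-22550901 and PCNA at 17:14137746-14142584, and each is protein-coding.

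The limits on CCNB1 and PLK1 removed most TOP2A-positive cells. Of the cells with at least 3 TOP2A and 1 CDK1 UMIs, 1417 in library 1 and 1738 in library 2, 248 and 400 had at most 1 CCNB1 UMI and 96 and 150 had none of PLK1. Members made up 4.59% and 5.93% of them. Just inside the TOP2A limit, the 19 and 30 members with 3 UMIs held 4810 and 4985 CPM (UMIs scaled to a total of 1e+06) summed over 62 replication genes. Just outside it, the 39 and 51 cells with 2 TOP2A UMIs that met the other limits held 4496 and 4874 CPM. The 59 and 108 cells that missed membership by 1 PLK1 UMI held 10258 and 9868 CPM summed over 98 mitotic genes. Just inside the CCNB1 limit, the 28 and 44 members with 1 UMI held 8511 and 9975 CPM of these mitotic genes, and just outside it the 13 and 17 cells with 2 CCNB1 UMIs held 10558 and 9679. Across the CCNB1 limit the mitotic sum was thus higher outside in library 1 and lower outside in library 2, an order that the libraries did not share.

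Members combined a high level of replication transcripts with a middle level of mitotic ones. Replication genes are those of origin licensing, the fork and nucleotide supply, and mitotic genes those of the centromere, mitotic kinases, spindle and anaphase. Per 10000 UMIs of a cell, the median of replication UMIs was 50.7 in members of library 1 and 49.95 in library 2. G2 and mitotic cells had 36.5 and 34.5, and non-cycling cells 14.8 and 14.1. For mitotic genes the members' medians were 90.3 and 90.1 UMIs per 10000, between 166.5 and 164.1 in G2 and mitotic cells and 29.2 and 25.02 in non-cycling cells. In both libraries the order of the 3 classes was the same for each measure, and the members' quartiles of the mitotic measure (71.4 to 107 and 78.1 to 106) lay below those of G2 and mitotic cells (142 to 188 and 138 to 187).

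**Figure D1:**
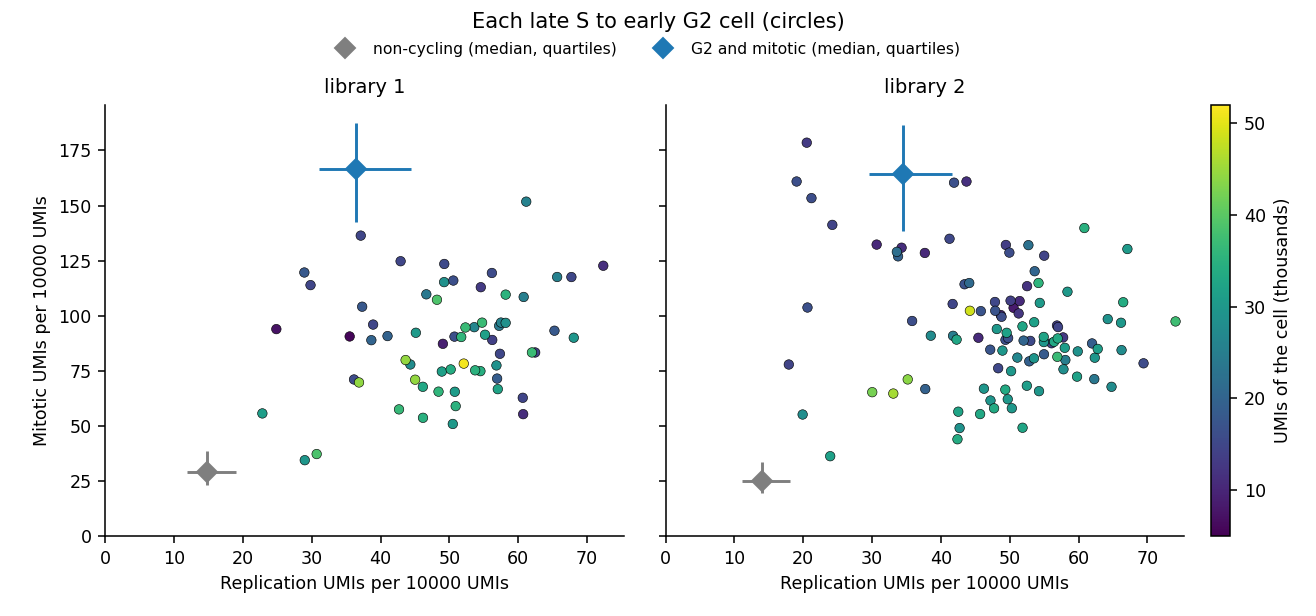
Each circle is 1 late S to early G2 cell, placed by its replication UMIs (x axis) and mitotic UMIs (y axis) per 10000 UMIs and coloured by its total UMIs, with 65 cells for library 1 on the left and 103 for library 2 on the right. Diamonds with bars are the medians and quartiles of the comparison classes: most members lie below the G2 and mitotic median of 166.5 or 164.1 mitotic UMIs per 10000, and the cells nearest to it in library 2 are dark, which means few UMIs.

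The share that replication genes took of all replication and mitotic UMIs in a cell had a median of 36.4% in members of library 1 (quartiles 31.1% to 42.2%) and 35.7% in library 2 (30.6% to 40.8%). G2 and mitotic cells had medians of 17.6% and 17.1%. Non-cycling cells had 33.3% and 36.0%, close to the members, with both gene groups low. This share thus separated members from G2 and mitotic cells but not from non-cycling cells. The mitotic lists include abundant cytoskeletal genes, the tubulins TUBA1B and TUBB and the tubulin-binding STMN1. TUBA1B alone reached 1087 and 970 CPM in non-cycling cells, 1952 and 1819 in members and 2688 and 2434 in G2 and mitotic cells. Without the 3 genes the median share was 50.5% and 46.5% in members, 23.3% and 21.95% in G2 and mitotic cells, and 54.3% and 58.3% in non-cycling cells.

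**Figure D2:**
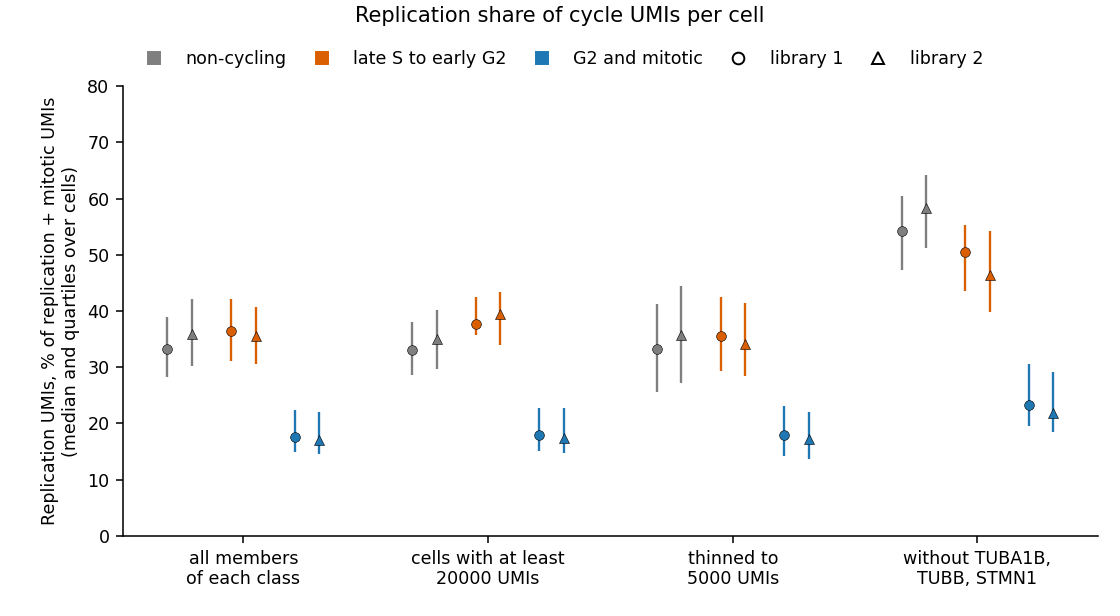
Median (symbol) and quartiles (bar) over cells of replication UMIs as a percent of replication and mitotic UMIs, by class (colour), library (circle, 1; triangle, 2) and setting (x axis). Members lie above G2 and mitotic cells in every setting drawn, from 34.2% to 50.5% against 17.1% to 23.3%, and near or below non-cycling cells except among cells with at least 20000 UMIs.

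Depth moved with the members' profile. The 26 members of library 1 with under 20000 UMIs held 9875 CPM of mitotic genes, against 8077 in the 39 deeper members, and library 2 gave 10828 in 44 cells against 8283 in 59. UBE2C, the ubiquitin-conjugating enzyme of the anaphase-promoting complex, was at 281 CPM in shallow and 135 in deep members of library 1 and at 351 and 114 in library 2. UNG, which removes uracil from newly copied DNA, went the other way, at 15.7 CPM in shallow and 33.3 in deep members of library 1 and at 12.3 and 32.9 in library 2. Shallow members were thus nearer to G2 and mitotic cells for UBE2C, UNG and the mitotic sum. UNG did not stand for all replication genes. Their sum was 4864 CPM in shallow and 4993 in deep members of library 1, and 4446 and 5110 in library 2. MCM3 was higher in shallow members of library 1, at 78.7 CPM against 46.5, and lower in those of library 2, at 44.6 against 53.2. A shallow cell can meet a limit of 0 or 1 UMI with fewer captured molecules, and the part of depth in the choice of cells was not tested. Members made up 0.268% and 0.0778% of cells with 5000 to 10000 UMIs and 1.55% and 1.75% of those with 30000 or more.

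The members also differed along the rule's own genes, given without a test. Members with 3 or 4 TOP2A UMIs (37 and 51 cells) held 7783 and 7875 CPM of mitotic genes, and those with 5 to 9 (27 and 43 cells) held 9558 and 9607. Replication genes were at 4757 and 4939 CPM in the first set and at 5267 and 4879 in the second, an order that the libraries did not share. CCNB1 separated members of library 2 more than those of library 1. Without a CCNB1 UMI the median replication share was 37.6% and 39.8% (37 and 59 cells), and with 1 UMI it was 35.8% and 32.1% (28 and 44 cells). These sets also differed in depth, with medians of 25435 and 28791 UMIs without a CCNB1 UMI and 28658.5 and 18767.5 with 1. For TOP2A the medians were 29667 and 23599 UMIs at 3 or 4, and 19507 and 24659 at 5 to 9. The part of depth in these differences was not tested. Across members the rank correlation of replication with mitotic UMIs per 10000 was 0.18 over 65 cells and -0.11 over 103, 2 measures that share each cell's total UMIs.

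Against non-cycling cells the members carried the transcripts of both DNA replication and the approach to mitosis. UMIs were summed over the cells of each class in each library, and the 6 sums were compared with edgeR's quasi-likelihood test with the library as a block. Genes counted as called had an adjusted p (Benjamini-Hochberg) below 0.05, a log2 fold change of at least 0.5 in size and 1 direction in both libraries. Of 16139 genes tested, 1118 were higher in members (6.93%) and 1079 lower (6.69%). The fit without the block called 475 and 125 (2.94% and 0.775%), and the higher genes were 50.9% of calls with the block and 79.2% without, 63.4% in DESeq2 and 61.1% among cells matched on UMIs. The cells were chosen by cycle genes, so genes that vary with TOP2A, CDK1, CCNB1 and PLK1 from cell to cell differ partly by construction. The median log2 fold change of all genes tested was -0.09.

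Licensing genes were higher in members, 13 of 17 tested, with a median log2 fold change of 2.28. CDC6, which loads the helicase at origins, was at 16.2 and 13.8 CPM in members of libraries 1 and 2. In non-cycling cells it was at 0.912 and 0.788, and the log2 fold change was 4.004 ± 0.320 (SE, n = 2 libraries). Each ± is the size of the log2 fold change divided by the square root of the test's F statistic. It rests on spread pooled over genes and is not the spread of the library values. CDT1, the partner of CDC6 in loading, was at 56.3 and 48.1 CPM against 5.50 and 4.47 (3.26 ± 0.15). Both genes stood far above non-cycling cells in each library, with no overlap. Of all genes tested, 25.7% lay above non-cycling cells without overlap. The helicase subunit MCM2 was at 48.5 and 41.7 CPM against 6.54 and 6.48 (2.64 ± 0.15), and MCM7 at 101 and 113 against 14.7 and 16.0 (2.67 ± 0.10). The exceptions were DBF4, MCM10, ORC4 and ORC5. MCM10, a factor that starts the fork, was at 33.5 and 52.6 CPM against 7.30 and 3.65, with an adjusted p of 0.12.

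At the fork itself 32 of 33 genes were higher, with a median log2 fold change of 2.23, and none lower. PCNA was at 269 and 226 CPM in members and at 34.3 and 23.7 in non-cycling cells, a log2 fold change of 2.98 ± 0.08 with an adjusted p of 1.43e-28 in edgeR's quasi-likelihood test. CDC45, which joins MCM in the active helicase, was at 61.6 and 64.3 CPM against 4.67 and 4.39 (3.67 ± 0.13). DSCC1, a subunit of a clamp loader, was low but rose from 0.580 and 0.484 to 9.58 and 12.1 CPM (4.26 ± 0.37).

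Nucleotide supply was higher in 10 of 12 genes, though with a lower median of 1.27. RRM2, the regulated subunit of ribonucleotide reductase, was at 272 and 264 CPM in members against 28.8 and 15.9 (3.52 ± 0.26), and thymidine kinase TK1 at 329 and 297 against 40.7 and 32.6 (2.97 ± 0.07). TYMS, thymidylate synthase, was at 196 and 173 CPM against 128 and 112 and missed the fold limit at 0.49 ± 0.08.

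Repair genes linked to replication had the higher median, 3.14, with 23 of 24 called. The exonuclease EXO1 was at 32.3 and 29.1 CPM against 1.17 and 1.10 (4.61 ± 0.20). Chromatin assembly genes followed, 17 of 18 higher with a median of 1.89, among them UHRF1, which guides DNA methylation at the fork, at 41.9 and 45.7 CPM against 2.82 and 3.08 (3.76 ± 0.16).

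Regulators of G1 and S gave the largest single change among named genes with at least 10 CPM in members. E2F8, a repressor of the E2F family that acts late in S phase, was at 23.3 and 44.5 CPM in members and at 0.734 and 0.532 in non-cycling cells, a log2 fold change of 5.68 ± 0.28 with an adjusted p of 7.09e-09 in edgeR's quasi-likelihood test. Within members it was higher in library 2 than in library 1, and both values lay above all non-cycling values. In all 14 of 20 regulators were higher, with a median of 1.34. The cyclin-dependent kinase inhibitors CDKN1A and CDKN1B were among the 6 not called, CDKN1A at 83.2 and 47.7 CPM in members against 84.1 and 74.3.

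Mitotic genes were also above non-cycling cells. Of the centromere list 25 of 29 were higher (median 2.49), of mitotic kinases and checkpoint genes 20 of 21 (2.69), of spindle genes and kinesins 22 of 27 (3.21), of anaphase and cytokinesis genes 17 of 21 (2.07), and of cohesin and condensin genes 16 of 20 (2.28). AURKB, the kinase of the chromosomal passenger complex, was at 69.4 and 66.7 CPM in members against 2.00 and 1.38 (5.23 ± 0.14). SGO1, which guards centromeric cohesin, was at 34.1 and 48.5 CPM against 1.28 and 1.22 (4.94 ± 0.17), and the spindle motor KIF11 at 44.3 and 62.7 against 1.67 and 1.39 (5.02 ± 0.17). KIF20A, a kinesin of late mitosis, was the exception in direction, at 7.18 and 10.5 CPM in members and at 9.35 and 8.40 in non-cycling cells, so its libraries overlapped.

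Some mitotic genes with a large mean change were not called, and their non-cycling sums differed between the libraries. NDC80, the kinetochore's contact with microtubules, was at 88.0 and 63.1 CPM in members and at 9.53 and 2.28 in non-cycling cells (3.70 ± 0.87, adjusted p 0.138 by edgeR). CKS2, a subunit of the CDK1 complex, was at 205 and 200 CPM in members and at 88.3 and 24.4 in non-cycling cells (1.94 ± 0.72, adjusted p 0.26).

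Against G2 and mitotic cells the same members were higher for early replication genes and lower for genes of late mitosis. With the block 406 genes were higher in members (2.52%) and 453 lower (2.81%). Without it 2 were higher and 26 lower (0.0124% and 0.161%), and the higher genes fell from 47.3% to 7.14% of calls. The fit without the block called 1676 genes at an unadjusted p under 0.05 whatever the fold. The median log2 fold change of all genes was -0.04. The rules set CCNB1 and PLK1 low in members and CCNB1 and TOP2A higher in G2 and mitotic cells. Genes that vary with these from cell to cell thus differ partly by construction here too.

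Licensing genes were higher in members than in G2 and mitotic cells for 8 of 17, namely CDC6, CDT1, MCM2, MCM3, MCM4, MCM6, MCM7 and ORC1, with a list median of 0.58 and none lower. CDC6 was at 3.06 and 1.79 CPM in G2 and mitotic cells, 2.55 ± 0.30 below members on the log2 scale. CDT1 was at 14.9 and 14.0 CPM there (1.73 ± 0.14), MCM2 at 15.8 and 16.8 (1.33 ± 0.14), and MCM3 at 18.8 and 22.8 against 53.9 and 51.0 in members (1.199 ± 0.132). For each of these genes both members' sums exceeded both G2 and mitotic sums, which also held for 21.7% of all genes tested. DESeq2 called 8 of the list higher and 1 lower. The edgeR fit without the block called 0, with 9 higher and 1 lower at an unadjusted p under 0.05, and CDC6 there had an adjusted p of 0.121 and CDT1 of 0.0592.

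The fork list had 18 of 33 higher and none lower, with a median of 0.64. DESeq2 called 19 higher, and edgeR without the block 0, with 19 higher at an unadjusted p under 0.05. PCNA in G2 and mitotic cells was at 133 and 106 CPM, a log2 difference of 0.94 ± 0.08 from members with an adjusted p of 1.67e-12 in edgeR's quasi-likelihood test and 0.321 without the block. POLA1, the catalytic subunit of the polymerase that begins each strand, was at 62.8 and 56.6 CPM in members and at 15.3 and 18.8 in G2 and mitotic cells (1.68 ± 0.18).

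UNG had the largest rise over G2 and mitotic cells among the named genes. It was at 29.3 and 27.5 CPM in members, 4.47 and 3.52 in G2 and mitotic cells and 6.02 and 5.64 in non-cycling cells. The log2 fold change was 2.72 ± 0.20 with an adjusted p of 1.16e-13 in edgeR's quasi-likelihood test and 0.0272 without the block. The mismatch repair gene MSH6 showed the same shape, at 66.4 and 76.0 CPM in members, 20.1 and 21.2 in G2 and mitotic cells and 18.8 and 19.1 in non-cycling cells (1.68 ± 0.11 over G2 and mitotic cells, adjusted p 0.0255 without the block). UNG and MSH6 were the 2 genes called higher without the block.

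Other repair and chromatin genes moved with them in the blocked fit. Of the repair list 11 of 24 were higher, and UBE2T, an enzyme of the Fanconi pathway, was lower at 71.2 and 71.6 CPM against 147 and 149 (-1.17 ± 0.09). BARD1, the partner of BRCA1, was at 38.3 and 52.6 CPM in members against 11.8 and 14.8 (1.65 ± 0.15). Of the chromatin list 9 of 18 were higher, led by the helicase-like HELLS at 47.9 and 65.9 CPM against 14.3 and 17.7 (1.72 ± 0.13) and the histone chaperone subunit CHAF1B at 37.1 and 38.02 against 13.4 and 11.103 (1.53 ± 0.19). The 3 lower were the chromatin proteins HMGB2 and HMGB3 and the histone chaperone ASF1B, and HMGB2 was at 587 and 546 CPM in members against 1078 and 963 (-0.96 ± 0.08).

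Among G1 and S regulators, 6 of 20 were higher and 3 lower. E2F1, an activator of S phase genes, was at 46.1 and 38.02 CPM in members against 16.1 and 14.3 (1.34 ± 0.15), and CDK2, the kinase of S phase, at 32.9 and 22.2 against 13.7 and 12.7 (0.91 ± 0.17). RBL1, a pocket protein that binds E2F, was at 20.9 and 63.5 CPM in members against 13.5 and 22.8 (1.11 ± 0.16), so the member sum of library 1 lay below the G2 and mitotic sum of library 2. CCNA2, cyclin A2, went the other way at 28.7 and 34.0 CPM against 84.1 and 81.8 (-1.50 ± 0.12), a call that also held without the block with an adjusted p of 0.0334.

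Some S phase genes did not separate the members from G2 and mitotic cells. TK1 was at 333 and 271 CPM in G2 and mitotic cells (-0.06 ± 0.07, adjusted p 0.691 by edgeR), and the large reductase subunit RRM1 at 45.5 and 66.7 in members against 46.3 and 59.0 (-0.01 ± 0.11). E2F8 was at 23.0 and 24.5 CPM there (0.45 ± 0.20, adjusted p 0.221). RRM2 was at 166 and 133 CPM, below members in both libraries, but with a log2 difference of 0.75 ± 0.24 and an adjusted p of 0.266 it was not called. Of the nucleotide list 2 of 12 were called, UNG and CTPS1.

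**Figure D3:**
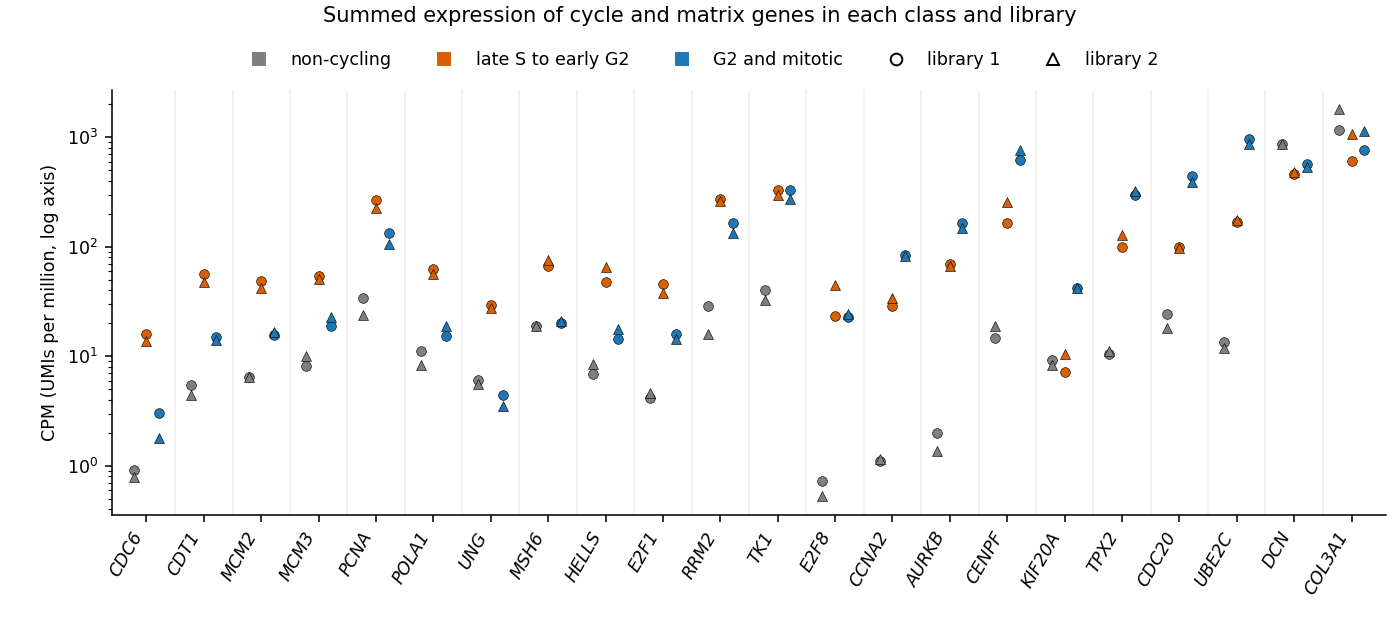
Summed expression in CPM on a log axis of 22 genes (x axis) in non-cycling cells (grey), late S to early G2 cells (orange) and G2 and mitotic cells (blue), with library 1 as circles and library 2 as triangles. From CDC6 to E2F1 the members are highest, for TK1 they lie near G2 and mitotic cells, and from CCNA2 to UBE2C the G2 and mitotic cells are highest, with UBE2C at 168 and 176 CPM in members against 965 and 876.

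Many genes of the mitotic lists were lower in members than in G2 and mitotic cells. Of cohesin and condensin genes 5 of 20 were lower (median -0.15), of centromere genes 10 of 29 (-0.50), of mitotic kinases and checkpoint genes 15 of 21 (-0.99), of spindle genes and kinesins 23 of 27 (-1.16) and of anaphase and cytokinesis genes 16 of 21 (-1.36). The order of these lists was not itself tested. DESeq2 called 4, 9, 13, 22 and 16 lower. The fit without the block called 0, 1, 0, 8 and 8 lower, and 6, 12, 14, 24 and 16 at an unadjusted p under 0.05. In cells with at least 20000 UMIs the counts were 5, 10, 15, 22 and 16, with medians of -0.22, -0.50, -1.08, -1.45 and -1.72.

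Several anaphase genes were far lower in members. UBE2C was at 168 and 176 CPM in members and at 965 and 876 in G2 and mitotic cells, a log2 fold change of -2.53 ± 0.07 with adjusted p-values of 5.22e-27 in edgeR's quasi-likelihood test and 0.0115 without the block. CDC20, which activates the anaphase-promoting complex, was at 98.8 and 97.9 CPM against 443 and 390 (-2.18 ± 0.08), and PTTG1, securin, at 70.03 and 69.2 against 351 and 316 (-2.36 ± 0.09). All 3 genes were still above non-cycling cells, where CDC20 was at 24.1 and 18.3 CPM. PIMREG, a mitotic regulator, was at 19.2 and 23.1 CPM against 202 and 148 (-3.10 ± 0.13). The largest called fall among genes with at least 10 CPM in the higher class was in a gene of no list, TROAP, a spindle-associated protein, at 1.80 and 2.43 CPM against 26.7 and 21.2 (-3.55 ± 0.30), and TNFAIP8L1 (-2.87 ± 0.27) and REEP4 (-2.86 ± 0.17), also of no list, fell by more than UBE2C. FBXO5, which restrains the complex until mitosis, differed from its list at 37.1 and 39.2 CPM against 24.8 and 25.4 (0.49 ± 0.14), just short of the fold limit.

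Among kinases, AURKA was at 29.9 and 29.9 CPM in members against 113 and 106 (-1.98 ± 0.16) and the centrosomal NEK2 at 7.78 and 10.5 against 33.1 and 35.7 (-1.99 ± 0.21). PKMYT1, which inhibits CDK1 before mitosis, was the single gene of its list that was higher, at 31.7 and 22.6 CPM against 12.2 and 11.2 (1.07 ± 0.18). Its functional partner WEE1 was at 43.1 and 30.7 CPM against 38.02 and 45.1 and was not called. Among kinetochore genes CENPF, a large protein of G2 nuclei and kinetochores, was at 163 and 254 CPM against 623 and 773 (-1.86 ± 0.07), whereas SKA1, which ties kinetochores to microtubules, was at 39.5 and 38.02 against 49.5 and 37.9 and was not called. SMC2, a condensin subunit, was likewise at 202 and 256 CPM against 211 and 258. LMNB1, a B-type lamin, was at 69.4 and 70.8 CPM against 73.9 and 77.5, and above 10.4 and 8.59 in non-cycling cells (2.77 ± 0.12).

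**Figure D4:**
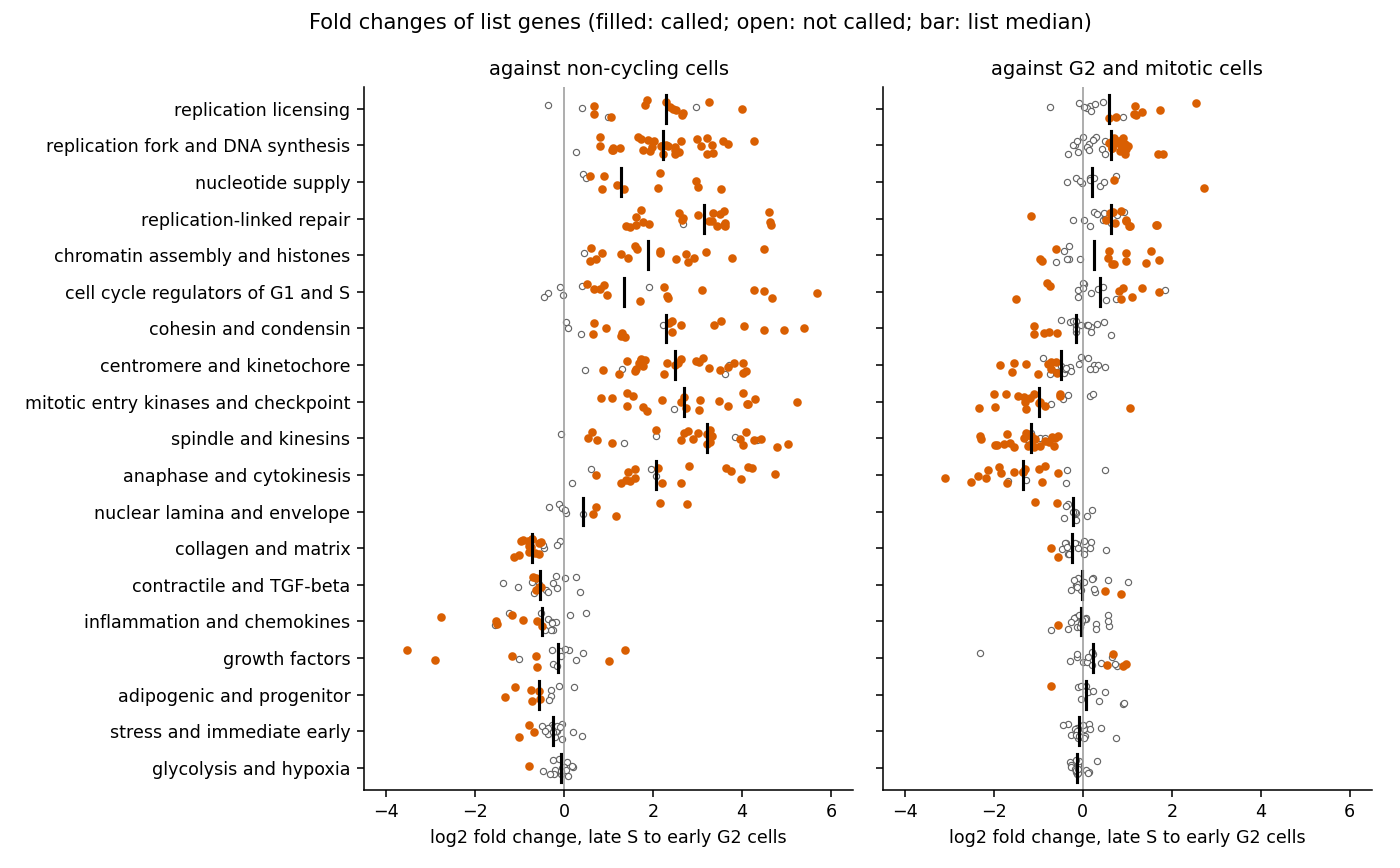
Log2 fold change of each list gene (x axis) in members against non-cycling cells (left) and G2 and mitotic cells (right), with called genes filled, others open, and the list median as a black bar; genes with 0 member UMIs are not drawn. The medians of the replication lists lie right of 0 on both sides, at 2.23 and 0.64 for the fork, though single genes lie left of it. The anaphase list has a median of 2.07 on the left and -1.36 on the right.

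Genes of the stromal matrix were lower in members than in non-cycling cells. Of 18 collagen and matrix genes 14 were lower and none higher, with a median of -0.73, and 4 were lower without the block. DCN, the proteoglycan decorin, was at 461 and 482 CPM in members, 568 and 540 in G2 and mitotic cells and 878 and 866 in non-cycling cells (-1.02 ± 0.06 against the last). COL3A1, the chain of type III collagen, was at 609 and 1066 CPM in members, 773 and 1140 in G2 and mitotic cells and 1161 and 1796 in non-cycling cells (-0.96 ± 0.05). Within each library the members were lowest for COL3A1. Its member sums overlapped those of G2 and mitotic cells. Both lay below both non-cycling sums, as held for 19.4% of all genes tested. In edgeR without the block the adjusted p of COL3A1 against non-cycling cells was 0.229. Against G2 and mitotic cells 2 of the 18 were lower, the collagen cross-linking enzyme LOX and the matricellular POSTN, the latter at 664 and 726 CPM against 956 and 927 (-0.55 ± 0.05).

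The 3 largest called falls against non-cycling cells, among genes with at least 10 CPM in the higher class, were in ASPN, LCN2 and CFD. ASPN, the proteoglycan asporin, was at 4.79 and 8.90 CPM in members against 41.8 and 61.5 (-3.04 ± 0.18), LCN2, an iron-carrying lipocalin, at 7.18 and 4.45 against 29.7 and 36.7 (-2.76 ± 0.26), and CFD, complement factor D, at 6.58 and 2.02 against 21.9 and 19.8 (-2.55 ± 0.27). Each was also low in G2 and mitotic cells, ASPN at 5.97 and 9.76 CPM. Among the next in size were PLXNA4, a semaphorin co-receptor (-2.36 ± 0.28), PRICKLE2 (-2.23 ± 0.14) and ITGA11, a collagen-binding integrin chain (-2.07 ± 0.33). CEMIP, which degrades hyaluronan, was at 35.3 and 71.2 CPM against 113 and 255 (-1.93 ± 0.10), with an adjusted p of 0.18 without the block.

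Inflammatory genes were lower for 7 of 19, growth factors for 5 of 18 with 2 higher, adipogenic and progenitor genes for 7 of 13, contractile and TGF-beta genes for 5 of 18, stress genes for 3 of 19 and glycolysis and hypoxia genes for 1 of 16, against 6.69% of all genes. In that order, DESeq2 called 7, 1, 4, 5, 3 and 1 lower, and cells matched on UMIs gave 8, 0, 4, 5, 3 and 1. The edgeR fit without the block called 3, 0, 2, 0, 0 and 0, with 6, 3, 5, 8, 2 and 1 lower at an unadjusted p under 0.05. Over all 16139 genes tested that fit had 2938 at an unadjusted p under 0.05, in either direction. CEBPD, an early adipogenic transcription factor, was at 570 and 527 CPM in members against 1132 and 1027 (-1.11 ± 0.05) and near its level in G2 and mitotic cells, 577 and 517. PDGFRA, a receptor of stromal progenitors, was lower than in both classes, at 83.2 and 108 CPM against 127 and 161 in G2 and mitotic cells (-0.71 ± 0.08) and 127 and 165 in non-cycling cells (-0.74 ± 0.08). Neither PDGFRA call was made without the block, with adjusted p-values of 0.383 and 0.14.

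Some genes were nearly absent from the members' counts. PI16, a progenitor marker, had 0 UMIs in members of both libraries and 212 in non-cycling cells, which makes it at least 1.54-fold lower with a floor of 3 counts over both libraries. IGF1 and IGF2 had 1 UMI each in members, and their ratios to non-cycling cells were 0.149 (exact counting interval 0.00375 to 0.835) and 0.0931 (0.00235 to 0.521). The adipogenic list's median was -0.57, or -0.54 with genes at 0 set to their bound. HGF, hepatocyte growth factor, was higher at 10.2 and 12.1 CPM against 4.03 and 5.98 (1.00 ± 0.24), but the difference was -0.46 in the stricter set of members with at least 5 TOP2A and 0 CCNB1 UMIs.

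Against G2 and mitotic cells some secreted factors were higher in members. ANGPT1, a ligand of the TIE2 receptor, was at 17.4 and 27.5 CPM in members against 7.75 and 13.4 (0.97 ± 0.17) and VEGFC, a lymphatic growth factor, at 32.3 and 47.7 against 20.6 and 25.7 (0.67 ± 0.13). ANGPT1 and VEGFC were near their non-cycling levels of 18.6 and 29.6 CPM and of 35.8 and 52.3. Neither was called without the block, and their adjusted p-values there were 0.482 and 0.479. No stress or glycolysis gene was called by edgeR or DESeq2 against G2 and mitotic cells, of 19 and 16 tested. In edgeR 2 stress genes were higher and 6 lower at an unadjusted p under 0.05, and 1 glycolysis gene was higher and 8 lower. Over all 16139 genes tested 3599 had such a p in either direction.

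Per-cell detection was compared after random thinning of every cell to 5000 UMIs. PCNA was then detected in 63.1% and 60.2% of members (exact intervals 50.2% to 74.7% and 50.1% to 69.7%), in 44.3% and 36.0% of G2 and mitotic cells and in 14.5% and 9.79% of non-cycling cells. Without thinning the shares were 98.5% and 94.2%, 89.9% and 82.0%, and 38.9% and 28.3%. CDC20 was detected in 46.2% and 36.9% of members after thinning, against 81.7% and 79.0% of G2 and mitotic cells and 9.99% and 7.79% of non-cycling cells. CDC6 was sparse, in 6.15% and 3.88% of thinned members with intervals of 1.70% to 15.01% and 1.07% to 9.65%, so its CPM rests on 61 UMIs in all members. PCNA and CDC20 in members lay above the non-cycling shares in both libraries. Non-cycling cells were chosen for the absence of cycle gene UMIs, so this order is partly by construction. The non-cycling shares come from cells and do not measure free RNA, whose part in these detections was not tested.

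Of the label's markers TOP2A and CDK1 were fixed by the rule and check nothing. PCNA, which the rule did not use, was higher in members than in either comparison class. The members also carried CDC6, CDT1, UNG and E2F1, genes usually strongest at the G1 to S transition and in early S phase, above G2 and mitotic cells. These comparisons place the members apart from G2 and mitotic cells, partly by construction, since the rules held CCNB1 and PLK1 low in members. They do not separate late S from earlier S phase, and no measurement of DNA content was used here.

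Several defining markers of other cell types were at 0 in members. All 5 erythroid genes in the files were at 0 UMIs, and so were the leukocyte gene PTPRC, the T cell genes CD3D and CD3E, the endothelial cadherin CDH5, the epithelial EPCAM and the fat cell genes ADIPOQ and FABP4. In members 3 UMIs over both libraries are 0.724 CPM, so 0 UMIs cannot show that a rarer gene is absent. Non-cycling cells held 0.107 and 0.057 CPM summed over the erythroid genes, and 0.0665 CPM of PTPRC in library 2, all below that floor. Other genes of the lymphocyte, endothelial, epithelial, fat cell and macrophage lists were present. The endothelial PECAM1 was at 14.4 and 14.2 CPM in members against 12.3 and 16.5 in non-cycling cells. The lymphocyte gene CD79A was at 3.59 and 1.62 against 2.05 and 0.541, and the macrophage gene CD14 at 24.5 and 18.6 against 27.9 and 22.6. None of them was called, and CD3G was at 0.599 CPM in members of library 1. The endothelial factor ERG was at 59.9 and 87.0 CPM in members and 47.6 and 70.8 in non-cycling cells, and the keratin KRT7 at 69.4 and 70.8 against 77.9 and 70.6, and neither was called. Of 8 markers of mural cells, which wrap small vessels, 6 were tested against non-cycling cells. The proteoglycan CSPG4 was higher, at 18.0 and 23.9 CPM against 11.4 and 13.1 (0.63 ± 0.17), and 2 potassium channel subunits were lower, ABCC9 at 5.99 and 7.28 against 10.01 and 19.6 (-1.37 ± 0.25) and KCNJ8 at 1.80 and 3.24 against 5.08 and 7.06 (-1.37 ± 0.38). The mural list summed to 29.3 and 35.6 CPM in members and 30.1 and 42.6 in non-cycling cells, and edgeR without the block called none of its genes, with 1 higher and 1 lower at an unadjusted p under 0.05 and 1 higher and 1 lower called by DESeq2. The part of such cells in the results was not tested. Over the 11 macrophage genes the sum was 73.0 and 21.0 CPM in members and 62.5 and 24.8 in non-cycling cells. ITGAM, an integrin of myeloid cells, differed by library more than by class, at 46.1 and 1.21 CPM in members and 30.3 and 0.446 in non-cycling cells, and its call (0.55 ± 0.19) became -0.00901 in thinned cells. Stromal genes were abundant, with VIM, the highest of the list, at 22495 and 21713 CPM in members. Of the 12 stromal genes 7 were lower in members than in non-cycling cells, THY1 among them, and 1 was higher. The list median was -0.68, and 6.69% of all genes tested were lower. Without the block 2 of the 12 were called lower and 0 higher.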

How the data were processed

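The deposited matrices hold raw UMI counts for each gene in each barcode. Per the file headers the authors made them with Cell Ranger 7.0.0, and the submitters' processing notes name the build Sscrofa11.1. The annotation used for counting is not given in the sources used here. Cells were classed on their full counts, and genes were found by symbol. The members and the gene lists were chosen with earlier results of these data known. Counts were summed per class and library (6 sums) and fitted over all genes with edgeR 4.0.16 (TMM scaling, filterByExpr, robust quasi-likelihood F test) in R 4.3.3. The library was a block because the classes compared come from the same libraries. The 5 rule genes were left out of calls. Residual degrees of freedom were 2 and prior degrees 36.6, so small p-values rest on spread pooled over genes. The procedure was tested on simulated data. Named genes were, per comparison and direction, the 12 largest called changes with at least 10 CPM in the higher class and up to 4 called members per list and direction, besides PCNA and exceptions to a list, and not each is printed. Members summed to 1670745 and 2472529 UMIs, which limits genes under a few CPM.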

Additional observations from a re-analysis of the deposited data

How the results depend on the processing

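The direction of each gene call named by the rule held under the alternatives run, apart from HGF against non-cycling cells (-0.46 with at least 5 TOP2A and 0 CCNB1 UMIs) and ITGAM (-0.00901 when thinned to 5000 UMIs). Many named genes kept their direction but were no longer called. Of 72 against G2 and mitotic cells these were 57 without the replicate block, 23 after thinning and 22 in the stricter members. Of 93 against non-cycling cells they were 31, 13 and 16 in the same order. Counts over all genes also depended on the fit. Against non-cycling cells, 1118 higher and 1079 lower became 475 and 125 without the replicate block, 695 and 502 after thinning, and 546 lower in cells matched on UMIs, 527 lower in the stricter members and 659 lower in DESeq2. Against G2 and mitotic cells, 406 higher and 453 lower became 2 and 26 without the replicate block, 131 and 175 after thinning, 194 and 187 in cells of 10000 to 30000 UMIs, 143 and 209 in the stricter members, 237 and 242 in matched cells, and 256 lower in DESeq2. The cause of these shifts was not tested, except that thinning, the window, matching and the stricter rule leave fewer UMIs or cells. Matching on UMIs and the limit of 20000 UMIs were chosen after seeing the data. Leaving out one library was tried only on genes already called with both, by asking whether the remaining library alone reached the fold limit. Against non-cycling cells 1000 to 1049 higher and 869 to 982 lower genes did so. Against G2 and mitotic cells 340 to 363 higher and 375 to 404 lower genes did so. No test was run, and a call already required 1 direction in both libraries, so these counts could only fall. The stricter rule left members at 0.188% and 0.207% of cells. The replication share of members was 35.5% and 34.2% after thinning (17.9% in G2 and mitotic cells of library 1), 37.7% and 39.5% at 20000 UMIs or more (17.5% in G2 and mitotic cells of library 2), and without TUBA1B, TUBB and STMN1 50.5% and 46.5% in members, 23.3% and 21.95% in G2 and mitotic cells and 54.3% and 58.3% in non-cycling cells. Other alternatives stayed within 1.5 times the counts given.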
